A study of Mus musculus with 4 samples.

Results

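Transcripts of 10 secreted growth factors and growth factor-like cytokines were examined in mouse dendritic cells: Csf1, Csf3, Inhba, Hbegf, Areg, Ereg, Tgfb1, Il6, Lif and Osm. The genes were given as a list, chosen with earlier results of these data known. Each was represented by the probe set that carried that gene symbol alone, chosen by the highest mean over the 4 arrays. These means ran from 3.74 (Csf3) to 11.24 (Tgfb1) on the log2 scale and are a description. This left 9 of the 10 genes, of 22180 genes with such a probe set. Areg had none and is not reported. All 9 genes lay above the intensity filter (a log2 value of 2.91) and were among the 14652 genes tested. Dendritic cells take up antigen and present it to T cells. They were grown here from the bone marrow of C57BL/6 mice and harvested on day 7. In the sulforaphane group (2 arrays) they were given 0.3 µM sulforaphane, an isothiocyanate that activates the transcription factor NRF2, in DMSO for 2 h, and in the DMSO group (2 arrays) the solvent alone. Both groups then received lipopolysaccharide (LPS) of E. coli O111:B4, a bacterial ligand of the receptor TLR4, at 100 ng/ml for 1 h. No array without LPS was analysed here, so that induction of these genes by LPS was not measured. The labels do not say whether replicates came from separate mice or cultures, so p-values measure only the spread between these arrays, which may be technical.

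The genes belong to 4 families. Csf1 and Csf3 encode the colony-stimulating factors of macrophages and granulocytes. Inhba (a subunit that dimerises into activin A) and Tgfb1 belong to the TGF-β superfamily and signal through serine/threonine kinase receptors to SMAD proteins. Hbegf, Areg and Ereg encode ligands of the EGF receptor family that are made as membrane proteins and shed by proteases. Il6, Lif and Osm encode cytokines whose receptors share the signal transducer gp130 (Il6st) and activate STAT3. Myeloid cells that sense LPS through TLR4 switch on many cytokine genes through NF-κB, AP-1 and C/EBP factors.

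Promoter sequence from RefSeq (GRCm38.p6) was searched for 5 of the 9 measured genes. Csf3, Hbegf, Ereg and Osm were not searched, so the motif counts below do not cover them. The 250 bases before the transcription start are shown for Csf1 (chr3:107760470-107760719, minus strand) and Inhba (chr13:16011601-16011850, plus strand), which had the largest differences. Those of Il6 (chr5:30012864-30013113, plus strand) and Lif (chr11:4257318-4257567, plus strand) are shown beside them as genes with smaller differences. Each runs 5′ to 3′ in the direction of the gene, and capitals mark matches to the motifs searched.
Csf1: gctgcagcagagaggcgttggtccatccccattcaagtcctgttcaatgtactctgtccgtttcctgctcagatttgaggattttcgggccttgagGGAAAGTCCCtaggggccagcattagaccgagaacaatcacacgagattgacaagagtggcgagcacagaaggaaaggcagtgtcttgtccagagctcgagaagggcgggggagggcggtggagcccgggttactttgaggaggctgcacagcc
Inhba: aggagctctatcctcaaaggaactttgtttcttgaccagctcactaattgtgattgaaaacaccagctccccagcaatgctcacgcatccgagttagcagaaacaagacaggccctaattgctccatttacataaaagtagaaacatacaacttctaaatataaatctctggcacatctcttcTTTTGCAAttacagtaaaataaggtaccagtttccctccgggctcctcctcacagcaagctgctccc
Il6: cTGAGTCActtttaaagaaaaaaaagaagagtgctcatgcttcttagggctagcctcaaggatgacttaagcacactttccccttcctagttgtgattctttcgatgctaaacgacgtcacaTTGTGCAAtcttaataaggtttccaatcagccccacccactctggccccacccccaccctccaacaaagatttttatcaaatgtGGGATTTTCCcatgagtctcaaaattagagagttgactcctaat
Lif: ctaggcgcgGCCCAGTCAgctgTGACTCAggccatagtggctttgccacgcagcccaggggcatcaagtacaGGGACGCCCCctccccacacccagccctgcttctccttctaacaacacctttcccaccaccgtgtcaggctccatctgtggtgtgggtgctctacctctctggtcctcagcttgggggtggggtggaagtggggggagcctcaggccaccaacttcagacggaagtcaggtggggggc
The motifs were searched on both strands: the NF-κB consensus, AP-1 (TGANTCA), the cyclic AMP response element (TGACGTCA), C/EBP (TTGCNNAA) and the antioxidant response element bound by NRF2 (TGACNNNGC). The letters of the AP-1 motif and the antioxidant response element can overlap. The NF-κB consensus matched in 4 of the 5 genes. In Csf1 it was GGAAAGTCCC, which matches on the opposite strand, 154 to 145 bases before the start. Il6 had GGGATTTTCC, 44 to 35 bases before the start, Lif had GGGACGCCCC (178 to 169), and Tgfb1, not shown, had GGGACCCCCC (140 to 131). The window of Inhba held no NF-κB match, and its marked run is a C/EBP match (TTTTGCAA, 67 to 60 bases before the start). Il6 also held a C/EBP match (TTGTGCAA, 128 to 121) and an AP-1 match (TGAGTCA, 249 to 243). Lif held an AP-1 match (TGACTCA, 228 to 222) and the only match to the antioxidant response element (GCCCAGTCA, 241 to 233). None of the 5 windows held the cyclic AMP response element. Over 32841 promoter windows of this length, a match was present in 7.25% for NF-κB, 6.75% for AP-1, 1.55% for the cyclic AMP response element, 9.57% for C/EBP and 10.2% for the antioxidant response element. A match describes letters and was not tested as a binding site.

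Sulforaphane-treated cells had lower values of all 9 growth factor transcripts (8 of 9 with the mean of each gene's probe sets, where Ereg differs), with differences from -1.04 (Csf1) to -0.11 (Tgfb1) on the log2 scale. Csf1, Inhba and Hbegf stood lowest, and the other 6 lay between -0.31 and -0.11. The median of the 9 was -0.28, against 0.018 over all genes tested. Differences below 0 made up 45.8% of all genes tested. In 7 of the 9 genes both sulforaphane arrays lay below both DMSO arrays, as did 19.5% of all genes, and in 0 of 9 both lay above, against 24.0% of all genes. A difference of at least 1.5-fold in that direction without overlap was present in 3 of 9, against 1.49% of all genes. By limma with Benjamini-Hochberg adjustment over all genes, 0 of the 9 passed the threshold of 0.05, where 0.130% of all genes did (19 genes). At an unadjusted p under 0.05 by limma, 3 of the 9 were lower, against 5.87% of all genes, and 0 were higher, against 7.09%. With 2 arrays against 2, an exact two-sided permutation test of a single gene cannot give a p below 0.333.

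**Figure D1:**
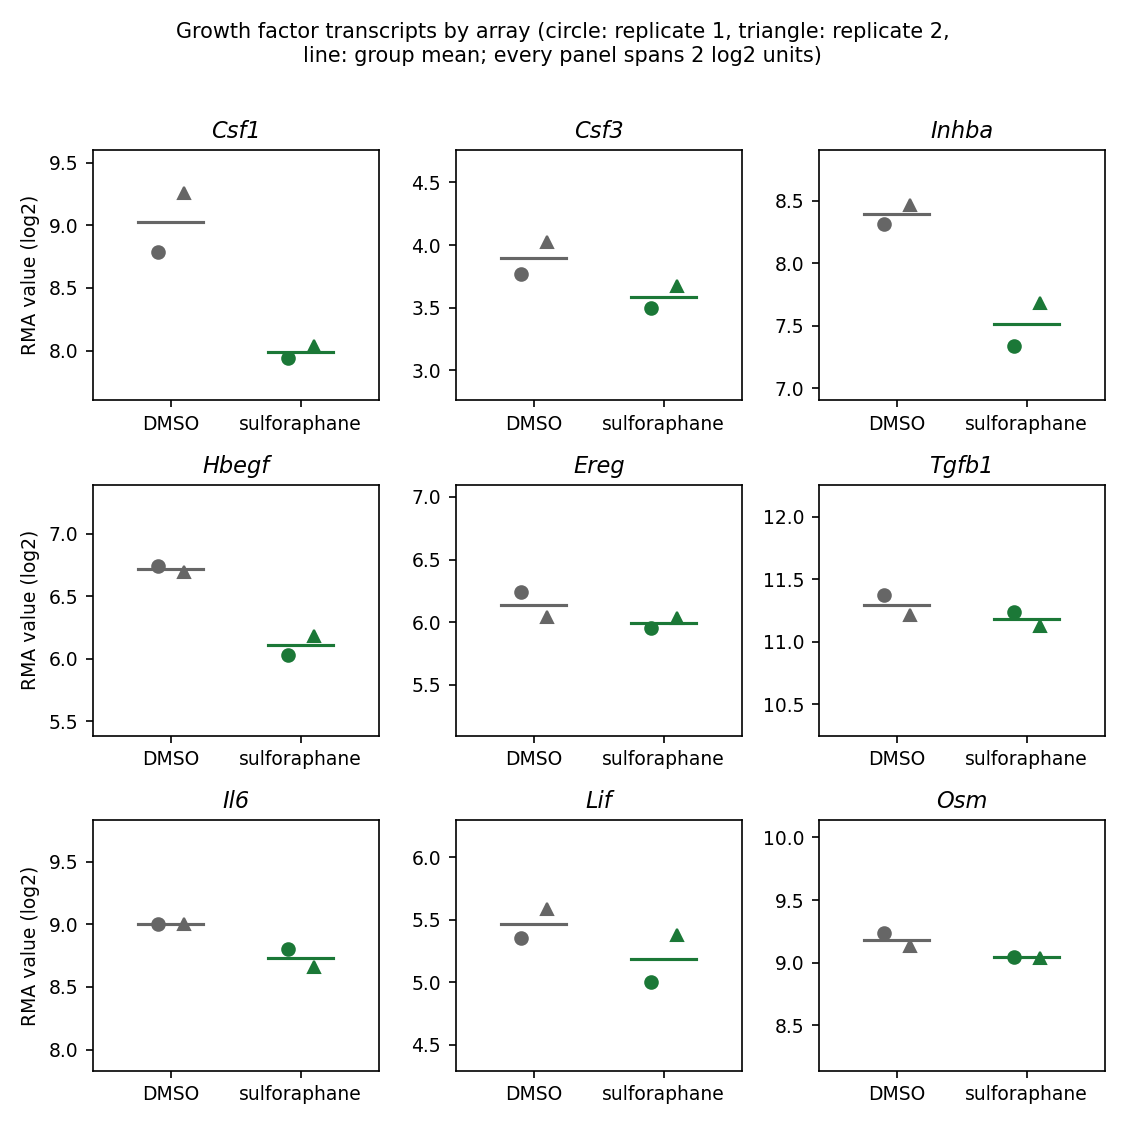
Values of the 9 growth factor transcripts on each array, on the log2 scale of the deposited RMA values, in the DMSO group (grey) and the sulforaphane group (green). Circles are replicate 1, triangles replicate 2 and lines group means, and every panel spans the same height, so that the steps of Csf1 (9.03 to 7.99) and Inhba (8.39 to 7.51) can be set against the small step of Tgfb1 (11.29 to 11.18).

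Csf1, the growth factor for macrophages and their precursors, had the largest difference of the 9. Its log2 values were 8.79 and 9.26 on the DMSO arrays and 7.94 and 8.04 on the sulforaphane arrays. Both sulforaphane arrays lay below both DMSO arrays by at least 0.75, although the DMSO arrays themselves differed by 0.47. The group means were 9.03 ± 0.34 (SD, n = 2) and 7.99 ± 0.068, a 2.05-fold lower level (log2 difference -1.04 ± 0.17 SE, 95% interval -1.46 to -0.61; adjusted p = 0.0962 by limma). Over the alternatives run, the adjusted p went from 0.0155 to 0.437, the highest from a fit with 1 array in a group, and it passed the threshold with median centring (0.0194) and with an intensity trend in the variance (0.0155). Ranked by the difference, Csf1 was number 31 from the lowest of the 14652 genes.

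Csf3, which encodes the granulocyte colony-stimulating factor G-CSF, was a weak signal on these arrays. Its values were 3.77 and 4.02 with DMSO and 3.50 and 3.68 with sulforaphane. The groups did not overlap, but the nearest arrays were only 0.090 apart. The difference was -0.31 ± 0.14 SE (95% interval -0.64 to 0.029; adjusted p = 0.426 by limma), and the DMSO arrays differed by 0.26. The receptors of these factors, Csf1r and Csf3r, differed by -0.033 and 0.0054, both with groups that overlapped. These receptors were named after their values were seen.

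Inhba, the activin subunit, had values of 8.31 and 8.47 with DMSO and 7.34 and 7.69 with sulforaphane. The groups were separated by 0.63, more than the gap between the sulforaphane arrays (0.35). Its mean went from 8.39 ± 0.11 (SD, n = 2) to 7.51 ± 0.24, a 1.84-fold lower level (log2 difference -0.88 ± 0.15 SE, 95% interval -1.25 to -0.51; adjusted p = 0.0975 by limma). The adjusted p lay between 0.0194 and 0.465 over the alternatives, below the threshold with median centring (0.0316) and with an intensity trend (0.0194). Inhba held position 65 from the lowest difference. Fst encodes follistatin, the secreted protein that binds activin and blocks it. Its values were 6.76 and 6.65 with DMSO and 5.43 and 6.02 with sulforaphane, a difference of -0.98 ± 0.20 SE (adjusted p = 0.148 by limma). The ligand and its inhibitor were thus both lower on both sulforaphane arrays. Sulforaphane replicate 1 had the lowest value of Inhba and of Fst.

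Other genes of the activin system differed less. Inhbb, the β-B subunit of activins and inhibins, had values of 3.11 and 3.16 with DMSO and 2.73 and 2.87 with sulforaphane (-0.34 ± 0.11 SE, adjusted p = 0.302 by limma). Both DMSO values lay above the intensity filter of 2.91 and both sulforaphane values below it. Inhbb thus passed the filter only through the DMSO arrays. Of the receptors, Acvr1b, the type I activin receptor ALK4, was at 8.81 and 8.90 with DMSO and 8.53 on both sulforaphane arrays (-0.32 ± 0.11 SE, adjusted p = 0.301). Acvr1, another type I receptor of the superfamily, differed by -0.13 and its groups overlapped.

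Tgfb1, the transforming growth factor β1, was at 11.37 and 11.21 with DMSO and 11.24 and 11.13 with sulforaphane. These groups overlapped, since sulforaphane replicate 1 lay above DMSO replicate 2. The difference was -0.11 ± 0.12 SE (95% interval -0.40 to 0.18; adjusted p = 0.773 by limma). TGF-β is secreted in a latent form that is held and activated at the cell surface. Lrrc32 encodes GARP, which holds latent TGF-β on the cell surface. It was at 8.78 and 8.73 with DMSO and 7.68 and 8.06 with sulforaphane (-0.88 ± 0.15 SE, adjusted p = 0.0975). Itgb8, a subunit of an integrin that activates latent TGF-β, was at 2.97 and 3.05 with DMSO and 3.62 and 3.65 with sulforaphane (0.63 ± 0.11 SE, adjusted p = 0.0975). The low level of Itgb8 in the DMSO group was near the intensity filter. Its partner Itgav differed by -0.12 ± 0.11 SE.

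Hbegf, the heparin-binding EGF-like growth factor, had values of 6.74 and 6.69 with DMSO and 6.03 and 6.18 with sulforaphane. Arrays of a group lay close together, 0.053 apart with DMSO and 0.15 with sulforaphane, while the groups were 0.51 apart. The mean went from 6.72 ± 0.038 (SD, n = 2) to 6.11 ± 0.11, a 1.53-fold lower level (log2 difference -0.61 ± 0.11 SE, 95% interval -0.89 to -0.33; adjusted p = 0.115 by limma). This difference was just past the 1.5-fold mark (0.585 on the log2 scale). Leaving out DMSO replicate 1 gave -0.58 and leaving out sulforaphane replicate 1 gave -0.53, both short of that mark. Over the alternatives its adjusted p was between 0.0651 and 0.548, above the threshold in each.

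Ereg, which encodes epiregulin, was at 6.24 and 6.04 with DMSO and 5.95 and 6.03 with sulforaphane. The groups were separated by only 0.0089, less than the gap between the arrays of either group (0.20 and 0.080). Its difference was -0.15 ± 0.12 SE (95% interval -0.44 to 0.15; adjusted p = 0.682 by limma). A dimmer Ereg probe set, at 2.32 and 2.70 with DMSO and 2.81 and 2.98 with sulforaphane, lay below the intensity filter and went the other way (0.38). The mean of both probe sets differed by 0.12. In the RefSeq gene order, Ereg stands between the EGF family genes Epgn and Areg, with Btc after Areg. Epgn, epigen, differed by -0.10 and its groups overlapped, and Btc, betacellulin, lay below the filter at 2.78 to 3.07. Adam17, the protease that sheds several EGF family ligands, was at 9.83 and 9.82 with DMSO and 9.64 and 9.59 with sulforaphane (-0.21 ± 0.11 SE, adjusted p = 0.483). Nrg1, neuregulin 1, a ligand of the related ErbB receptors, was at 8.37 and 8.38 with DMSO and 8.15 and 8.22 with sulforaphane (-0.19 ± 0.11 SE, adjusted p = 0.527).

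Il6, the gp130 cytokine of the acute phase response, was at 9.002 and 9.006 with DMSO and 8.81 and 8.66 with sulforaphane. The DMSO arrays were almost the same, 0.0039 apart, and both sulforaphane arrays lay at least 0.20 below them. The difference was -0.27 ± 0.11 SE, a 1.21-fold lower level (95% interval -0.55 to 0.0037; adjusted p = 0.393 by limma). The variance in that error is shared across genes, so the close agreement of the DMSO arrays does not by itself make it small.

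Lif and Osm, which stand next to each other in the RefSeq gene order, encode leukemia inhibitory factor and oncostatin M. Lif was at 5.35 and 5.59 with DMSO and 5.003 and 5.38 with sulforaphane, and its groups overlapped. Its difference was -0.28 ± 0.16 SE (95% interval -0.68 to 0.12; adjusted p = 0.540 by limma). Osm was at 9.23 and 9.13 with DMSO and 9.05 and 9.04 with sulforaphane, without overlap and with 0.083 between the groups. It differed by -0.14 ± 0.11 SE (95% interval -0.40 to 0.13; adjusted p = 0.663). Of the receptor chains, Lifr, the LIF receptor, was at 5.95 and 6.03 with DMSO and 5.68 and 5.43 with sulforaphane (-0.43 ± 0.13 SE, adjusted p = 0.258). Il6st, the shared gp130, was at 9.77 and 9.67 with DMSO and 9.94 and 9.89 with sulforaphane (0.20 ± 0.11 SE, adjusted p = 0.521). Clcf1, cardiotrophin-like cytokine factor 1, which also signals through gp130, differed by -0.30 ± 0.14 SE, and Il27, whose receptor contains gp130, by -0.37 ± 0.16 SE.

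**Figure D2:**
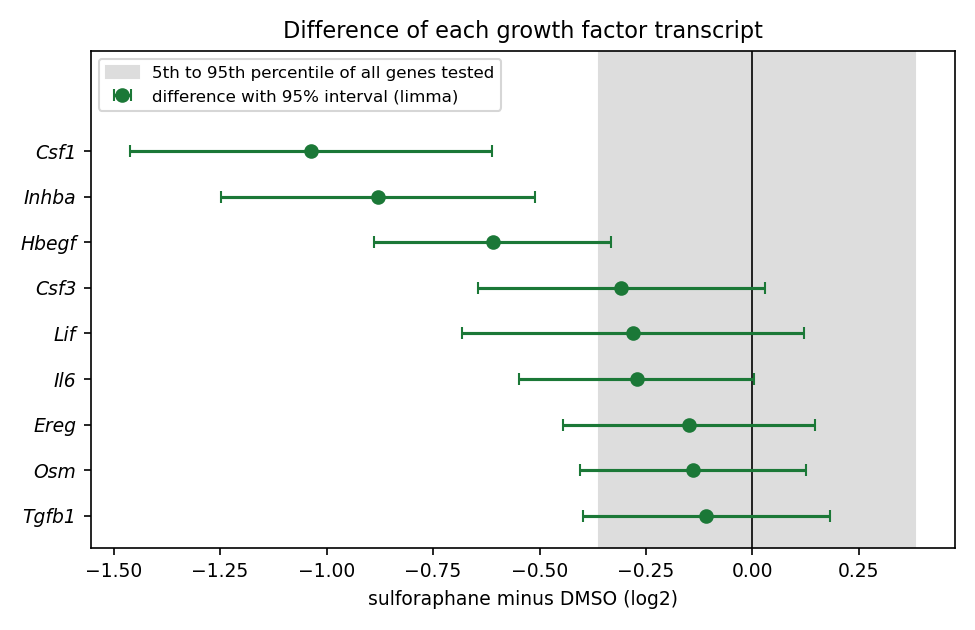
Difference between sulforaphane and DMSO (log2) for each of the 9 growth factor transcripts, with 95% intervals from limma, n = 2 arrays per group. The grey band holds the middle of all 14652 genes tested, from the 5th (-0.36) to the 95th percentile (0.38), and Csf1, Inhba and Hbegf lie below it with intervals that do not reach 0.

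The genes around the growth factors were described by 6 lists of receptors, release and activation, inhibitors and feedback, regulators of the mRNAs, other ligands of the same families and other secreted growth factors. Of their 83 tested genes 0 passed the threshold by limma over all genes. In the lists, 19 genes had an unadjusted p under 0.05 in the lower direction and 2 in the higher, where the shares of all genes were 5.87% and 7.09%. Receptors had a median of -0.0018 over 15 genes, with 8 below 0 and 7 above. Genes of release and activation had a median of -0.062 over 13, regulators of the mRNAs -0.069 over 18 and other ligands of the families -0.091 over 12. With an array left out, the median of receptors turned to 0.026 (no DMSO replicate 2) and that of release and activation to 0.012 (no DMSO replicate 1). Regulators of the mRNAs then lay at -0.035 (no DMSO replicate 1) to -0.11 (no DMSO replicate 2), and the other ligands at -0.052 and -0.13 in the same order.

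Inhibitors and feedback genes had 11 of 16 tested members below 0, against 45.8% of all genes, and 6 were lower without overlap, against 19.5%. Their median of -0.077 became -0.0072 when sulforaphane replicate 1 was left out, -0.15 when DMSO replicate 1 was and -0.17 when sulforaphane replicate 2 was. The largest difference was that of Spry1, a feedback inhibitor of receptor tyrosine kinase signalling. Its values were 5.35 and 5.42 with DMSO and 3.92 and 4.44 with sulforaphane (-1.21 ± 0.18 SE, adjusted p = 0.0791 by limma). Spred1, a related inhibitor, was at 9.14 on both DMSO arrays and at 8.70 and 8.71 with sulforaphane (-0.43 ± 0.10 SE, adjusted p = 0.189). Socs1, which blocks JAK kinases, differed by -0.53 ± 0.13 SE (adjusted p = 0.197).

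Other secreted growth factors, none of them among the 10 genes, had differences below 0 in 8 of 9 tested (45.8% of all genes), with a median of -0.29. Of these 9, 6 were lower without overlap (19.5% of all genes). The list was chosen with earlier results of these data known, so these shares are not separate support for the growth factor result. Pgf, placental growth factor, had values of 6.67 and 6.63 with DMSO and 5.46 and 5.10 with sulforaphane (-1.37 ± 0.15 SE, adjusted p = 0.0510 by limma). Edn1, which encodes the vasoconstrictor endothelin 1, was at 4.65 and 4.81 with DMSO and 3.62 and 3.75 with sulforaphane (adjusted p = 0.0510). Pdgfb, the platelet-derived growth factor B chain, was at 7.57 and 7.54 with DMSO and 6.67 and 6.70 with sulforaphane (-0.87 ± 0.10 SE, adjusted p = 0.0565). Hgf, hepatocyte growth factor, differed by -0.41 ± 0.15 SE (adjusted p = 0.331). For Pgf and Pdgfb the arrays of each group lay much closer together than the groups.

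Among regulators of the growth factor mRNAs, 10 of 18 differences were negative. Both sulforaphane arrays were below both DMSO arrays in 9 of the genes and above them in 6, against 19.5% and 24.0% of all genes. Fosl2, an AP-1 transcription factor, was at 10.76 and 10.63 with DMSO and 9.88 and 9.86 with sulforaphane (-0.83 ± 0.11 SE, adjusted p = 0.0581 by limma). Zfp36l1, which promotes the decay of mRNAs with AU-rich elements, differed by -0.52 ± 0.11 SE (adjusted p = 0.150). Arid5a, which stabilises Il6 mRNA, was higher, at 6.65 and 6.69 with DMSO and 7.20 and 7.04 with sulforaphane (0.45 ± 0.11 SE, adjusted p = 0.197). Cebpd, the transcription factor C/EBPδ, differed by -0.42 ± 0.11 SE (adjusted p = 0.201).

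**Figure D3:**
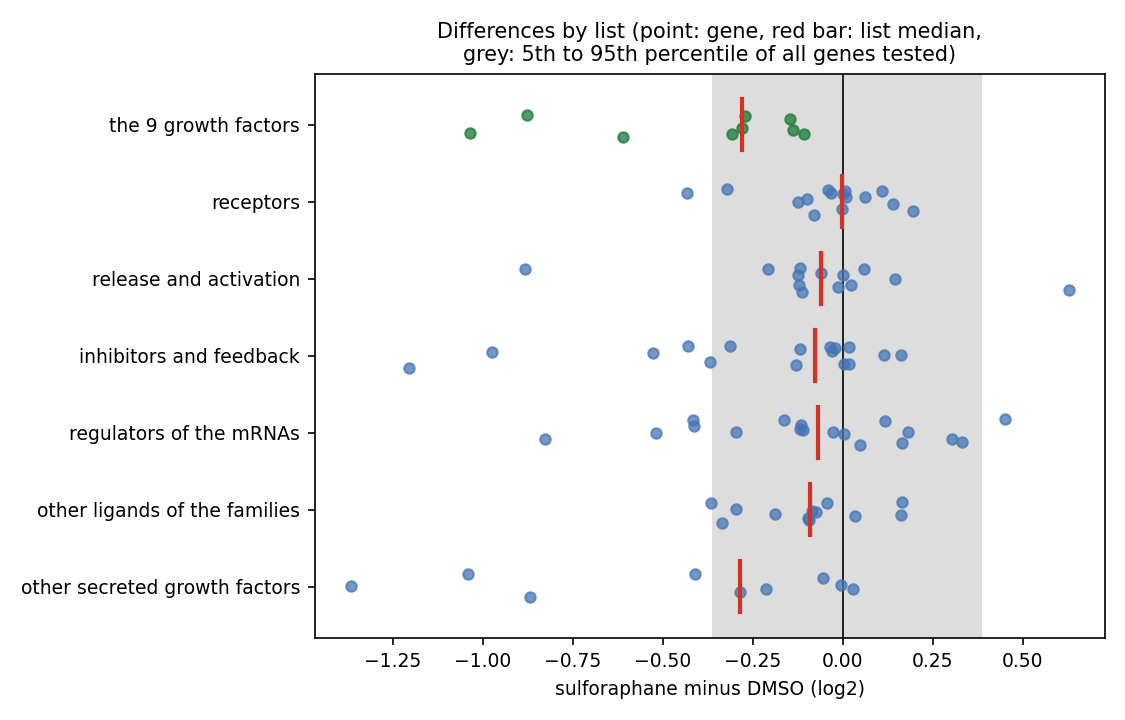
Difference between sulforaphane and DMSO (log2) for every tested gene of the 9 growth factors and of the 6 lists around them, with points as genes, red bars as list medians and the grey band as the 5th to 95th percentile of all genes tested. The growth factors and the other secreted growth factors have medians of -0.28 and -0.29, while the receptors centre near 0.

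The treatment, the stimulus and the cell type were checked by lists. All 10 NRF2 targets were higher without overlap (24.0% of all genes), with a median of 0.80. Osgin1 rose by limma (1.57 ± 0.13 SE, adjusted p = 0.0322). Among 10 genes that LPS typically induces, the median was -0.12, with 8 below 0 (45.8% of all genes) and 2 above. This median was -0.19 with 9 below 0 when sulforaphane replicate 2 was left out, and 6 lay below 0 when sulforaphane replicate 1 was. Of the 10 genes, 5 were lower without overlap (19.5% of all genes) and 1 higher (24.0%). Ccl4 (-0.98, adjusted p = 0.0510 by limma) and Ptgs2 (-0.90, adjusted p = 0.0581) had the smallest p. The dendritic cell markers Itgax (11.26 to 11.33 over the arrays) and Zbtb46 (5.95 to 6.44), named here as defining genes, lay above the filter on all arrays. Markers of other myeloid cells were also high. The mean log2 value over a list's tested genes was 8.2 to 8.5 for dendritic cell markers over the arrays. It was 9.5 to 9.8 for macrophage markers and 8.9 to 9.2 for neutrophil markers. Values of different genes do not measure shares of cells, so the cell type rests on the labels. Of the 10 dendritic cell markers 6 were lower without overlap (19.5% of all genes) and 2 higher (24.0%), with 4 above 0 and a median of -0.38. Irf4 (-0.87) and Batf3 (-0.64) had the smallest p. H2-Ab1 (0.26), Cd86 (0.095), Ccr7 (0.092) and Itgax (0.066) lay above 0, and were named after their values were seen. The summed log2 values of all 10 dendritic cell markers were 84.25 and 85.19 with DMSO and 81.74 and 82.35 with sulforaphane. Macrophage markers had 5 of 8 lower without overlap (19.5% of all genes) and 0 higher (24.0%). The largest difference was that of Vcam1 (-0.78, adjusted p = 0.0600 by limma). Their median was -0.19, with 1 above 0, and it was -0.12 when sulforaphane replicate 1 was left out. Their sums were 77.53 and 78.29 with DMSO against 75.80 and 76.08 with sulforaphane. The sums of both lists and the growth factors were lower on the same arrays, though single markers went both ways, and the part of the markers in the result was not tested. Fewer cells of a type and less RNA per cell cannot be told apart in bulk RNA. Mast cell and basophil markers had sums of 53.05 and 52.52 against 50.61 and 51.58, with 5 of 8 lower without overlap, against 19.5% of all genes. Their median of -0.091 became -0.19 when sulforaphane replicate 2 was left out. Neutrophil markers, the granulocyte genes of marrow cultures, summed to 80.35 and 82.83 against 82.56 and 81.08, and stromal markers to 21.32 and 21.61 against 21.45 and 21.86, both with groups that overlapped. Of 6 B cell markers 3 were tested (sums of 11.27 and 11.57 against 9.85 and 11.42), and of 8 T and NK cell markers 2 (9.32 and 9.19 against 9.04 and 8.78). The B cell gene Ms4a1, the T cell genes Cd3d and Cd3g and the stromal genes Pdgfra, Dcn and Lum lay below the filter. The median over the arrays' probe sets lay between 3.24 and 3.27. DMSO replicate 1 stood apart by its interquartile range (3.41, against 3.61 to 3.62 on the other arrays).

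The differences of the growth factors were computed again with each array left out, since 1 array stood apart and the DMSO arrays differed in Csf1. All 9 differences stayed below 0 in each case, with medians from -0.40 to -0.22. Csf1 was at -1.27 when DMSO replicate 1 was left out and at -0.80 when DMSO replicate 2 was, and Inhba lay between -1.05 and -0.71. Il6 ran from -0.35 to -0.20 and Csf3 from -0.44 to -0.18. Leaving out sulforaphane replicate 2 gave -0.47 for Lif, and leaving out sulforaphane replicate 1 gave -0.093. Ereg was -0.049, Tgfb1 -0.027 and Osm -0.087 without DMSO replicate 1, the array with the highest value of each of these genes.

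**Figure D4:**
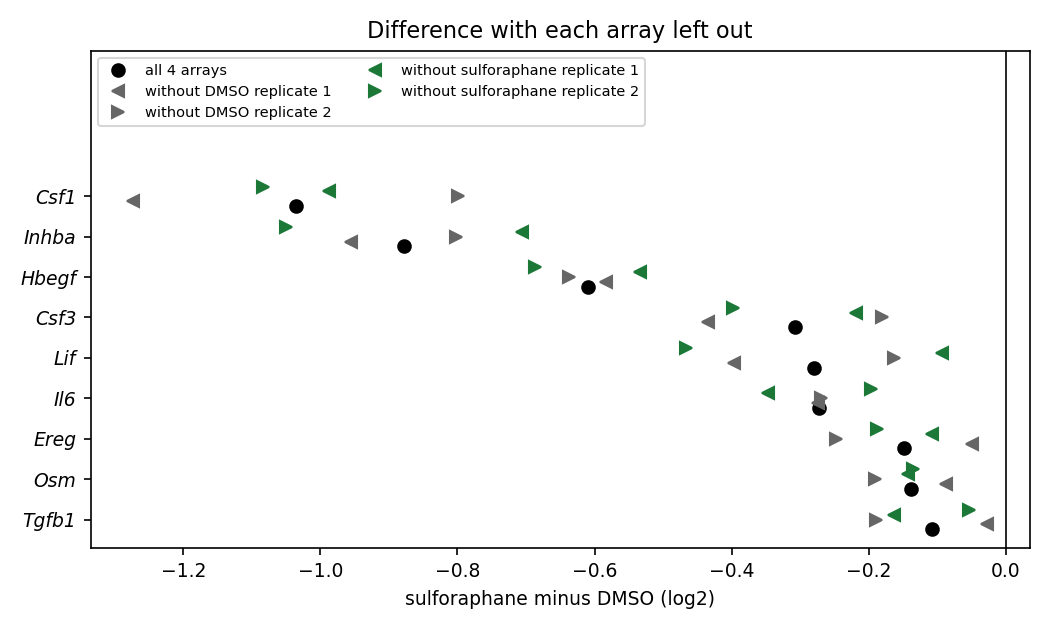
Difference between sulforaphane and DMSO (log2) of the 9 growth factor transcripts with all 4 arrays (black) and with each array left out in turn (grey for a DMSO array, green for a sulforaphane array). Every point lies below 0, and Csf1 spans -1.27 to -0.80 while Tgfb1 comes as close to 0 as -0.027.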

How the data were processed

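RNA of 4 samples was hybridised to Affymetrix arrays as biotin-labelled cRNA, per the labels' protocols. The deposited log2 values come from RMA, run under R 2.15.1 according to the submitters' processing notes (per the labels). The method subtracts background, equalises the array distributions by quantiles and summarises the probes of a probe set. It is meant to remove a change shared by all genes. The deposited probe set values did not have equal distributions, with an interquartile range of 3.41 on DMSO replicate 1 against 3.61 to 3.62 on the other arrays. The log base is taken as 2 because RMA uses it and the values run as such, and every fold rests on that. Of 41345 probe sets, 23521 had exactly 1 gene symbol in the platform annotation.

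The members and lists were chosen with earlier results of these data known. Genes were tested where their mean exceeded the 40th percentile over the probe sets. The fit used limma 3.58.1 under R 4.3.3 with lmFit and eBayes and no replicate block. P-values were adjusted by Benjamini-Hochberg over all genes tested, with a threshold of 0.05. The procedure was run on simulated data with independent noise and no shift between arrays. Its requirement on detection concerned changes larger than any growth factor difference here, so it does not describe power at the sizes reported. The number of arrays limits the precision.

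The text names all 10 members, up to 4 genes with the smallest unadjusted p from each of the 6 lists, up to 2 from a marker list described, and neighbouring genes of the same families. Exceptions are stated. Alternatives were other filters, scalings, probe set choices and variance models, a replicate block and each array left out. Replicate 1 minus replicate 2 correlated at r = -0.081 over genes between the groups, and the numbers were not taken to pair arrays.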

Additional observations from a re-analysis of the deposited data

How the results depend on the processing

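Under 13 alternatives, 116 differences of growth factor genes were recomputed. Of these, 111 kept their direction and their side of the threshold, 4 newly passed it and 1 reversed. The 4 were Csf1 and Inhba with median centring and with an intensity trend in the variance, so 2 growth factor genes passed under each of these settings and 0 under the others. The reversed difference was that of Ereg with the mean of its probe sets (0.12), which includes a dim probe set. Csf3 was not tested with the filter at the 60th percentile.

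The number of genes past the threshold over all genes moved from 19 (10 lower and 9 higher) to 138 with the filter at the 60th percentile, 143 with median centring (102 lower and 41 higher), 106 with a second quantile normalization (72 lower and 34 higher), 34 with the mean of probe sets, 249 with an intensity trend and 8 with a replicate block. With any array left out it was 0, when 1036 to 2850 genes had an unadjusted p under 0.05. In these fits 1 group has a single array, assumed to vary like the other group, so neither the 0 nor their adjusted p-values bear on stability. Of genes in the lists around the growth factors, 5 passed with the filter at the 60th percentile, 6 with median centring, 5 with a second quantile normalization, 2 with the mean of probe sets (Edn1 and Pgf) and 7 with an intensity trend. The replicate block changed no growth factor's call, with 0 past the threshold. The cause of these moves was not tested. Background was not measured on these arrays, and Itgb8 lay near the intensity filter in the DMSO group.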
